A study of Mus musculus with 45 samples.

Results

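The MYC family and the proteins that share its dimer partner were followed through mouse cell reprogramming by long-read RNA sequencing. The 8 genes were chosen by name, with earlier results of these data known. These were the family members Myc, Mycn and Mycl, their partner Max, the MAX-binding repressors Mnt, Mga and Mxd1, and the MYC-binding protein gene Mycbp. They are 8 of 23575 genes in the deposited gene table, and their 160 transcript models are part of 276608 in the transcript table. All 8 genes and all 45 libraries are accounted for below.

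Neural progenitors carrying a green fluorescent reporter under the Oct4 promoter (line O4G, itself derived from R1 embryonic stem cells) were reprogrammed toward induced pluripotent stem cells. The genotypes were wild type (WT), OKMS-Luciferase-AS and OKS-Luciferase-AS. The letters stand for the factors OCT4, KLF4, MYC and SOX2, so that MYC is supplied in OKMS and left out of OKS; the labels do not say what the luciferase element does, and both factor lines carry it. Progenitors of all 3 genotypes were sampled in NPC medium (N2B27 with EGF, FGF-2 and heparin; 8 libraries, taken as day 0). OKMS cells (11 libraries) and OKS cells (9 libraries) were sampled in serum medium with LIF and doxycycline between days 2 and 20. Wild-type progenitors kept for 2 days in that same serum and doxycycline medium (3 libraries) served as cells exposed to the medium without factors. Another 5 libraries came from OKMS or OKS cells moved into 2i-LIF, which contains the kinase inhibitors CHIR-99021 and PD0325901: the switch was at day 6 for cells sampled at days 14 and 20, and its day is not given in the sources used here for cells sampled at day 18. No doxycycline is listed for 2i-LIF. The 9 embryonic stem cell libraries (R1, the single clone R1-Clone3, and O4G) were all wild type and all grown in 2i-LIF. Stem cells and progenitors therefore also differ in medium, and cell state and medium cannot be told apart in their comparison.

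Of the libraries, 22 were made by direct cDNA sequencing on R9.4.1 flow cells (called R9) and 23 by PCR cDNA sequencing on R10.4.1 flow cells (called R10), and the kinds were tested separately unless stated. R9 libraries held 448250 to 1391635 reads each, and R10 libraries 567129 to 4245818. Levels are CPM, counts scaled by the authors to a common library total, and 3 reads, the level that a count of 0 allows, amount to 2.16 to 6.69 CPM in R9 and 0.707 to 5.29 CPM in R10. The share of reads on mitochondrial genes differed within R10. It was 0.153% to 1.12% in progenitors, and 0.165% and 0.319% in wild-type cells in serum. OKMS (0.730% to 2.03%) and OKS cells (1.30% to 2.04%) in serum lay above that wild type. Reprogrammed cells in 2i-LIF had 1.56% to 1.96%. It was 1.81% to 2.35% in the 6 numbered stem cell libraries, and 0.124% in the R1 library without a number, which stands apart. R10 stem cell means, transcript values and list counts include that library (n = 7), and the values without it are given beside the member results. Summed CPM of 6 pluripotency markers was 11001 to 13613 in stem cells and 10.8 to 30.4 in progenitors. That of 6 neural progenitor markers was 4464 to 7016 in progenitors and 4.93 to 42.9 in stem cells. The 2 neuron markers with values summed to 37.4 to 133 CPM in stem cells and 0 to 10.5 CPM in progenitors. They therefore do not single out neurons here. Each OKMS or OKS library is the only one of its day, medium and kind, and nothing in the labels says that the replicates of wild-type cells were separate cultures, so p-values measure only the spread between these samples. In such bulk RNA, fewer cells of a type and less RNA per cell cannot be told apart.

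MYC, MYCN and MYCL are basic helix-loop-helix leucine zipper transcription factors that bind DNA as dimers with MAX, typically at the E-box CACGTG, and raise transcription of genes for ribosome assembly, nucleotide synthesis and glycolysis. MNT and the MXD proteins compete for MAX and recruit repressors to the same sites, while MGA joins MAX to a variant Polycomb complex that silences germline genes in pluripotent cells. MYCN is the form best known from embryonic and neural precursors, and MYC is a classic reprogramming factor that speeds the process but is not required for it.

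The genes lie on GRCm38 (mm10) as follows, by the GENCODE annotation. Myc (ENSMUSG00000022346.15) is on chromosome 15 from 61985391 to 61990374 on the plus strand. Mycn (ENSMUSG00000037169.15) is on chromosome 12 from 12936093 to 12941914, minus strand. Mycl (ENSMUSG00000028654.13) is on chromosome 4 from 122995652 to 123002485, plus strand, and Mycbp (ENSMUSG00000028647.13) is on the same chromosome from 123904832 to 123912269, plus strand. Max (ENSMUSG00000059436.13) is on chromosome 12 from 76937269 to 76962201, minus strand. Mnt (ENSMUSG00000000282.12) is on chromosome 11 from 74830920 to 74845725, plus strand. Mga (ENSMUSG00000033943.15) is on chromosome 2 from 119897228 to 119969581, plus strand. Mxd1 (ENSMUSG00000001156.9) is on chromosome 6 from 86647042 to 86669161, minus strand.

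The bases just before the start sites were searched for the E-box CACGTG, its variant CACATG, the STAT motif TTCNNNGAA, the GC box GGGCGG and the octamer ATGCAAAT, on both strands, with overlapping matches counted. RefSeq (GRCm38.p6) gave a promoter for 7 of the 8 genes, all but Myc. Their windows do not all end at the GENCODE starts given above. The window of Mycl (122995681 to 122995930) lies past its GENCODE start, and that of Mycbp (123904763 to 123905012) runs past it. The windows also do not cover every start in these data. Models of Max and Mga also start further upstream, at 76984883 and 119872540. In 250 upstream bases, only Mnt held a CACGTG, which 6.02% of all 32851 promoters hold. GGGCGG, held by 32.7% of promoters, was found in 6 of the 7: 6 times for Mxd1, 3 times for Mnt, 2 times for Mycn, 1 time each for Mga, Mycl and Mycbp, and not for Max. None of the 7 held CACATG (12.3% of promoters), TTCNNNGAA (7.02%) or ATGCAAAT (1.601%). The windows of Mnt (the E-box), Mga (higher in stem cells, below) and Mxd1 (the most GC boxes) are shown 5′ to 3′, with matches in capitals, at chr11:74830674-74830923 (plus strand), chr2:119896978-119897227 (plus strand) and chr6:86669160-86669409 (minus strand).
Mnt: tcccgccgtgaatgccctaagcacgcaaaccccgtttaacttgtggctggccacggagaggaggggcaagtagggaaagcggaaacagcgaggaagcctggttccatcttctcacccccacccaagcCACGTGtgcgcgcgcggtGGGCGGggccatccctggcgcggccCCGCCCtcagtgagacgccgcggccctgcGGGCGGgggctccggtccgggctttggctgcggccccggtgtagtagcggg
Mga: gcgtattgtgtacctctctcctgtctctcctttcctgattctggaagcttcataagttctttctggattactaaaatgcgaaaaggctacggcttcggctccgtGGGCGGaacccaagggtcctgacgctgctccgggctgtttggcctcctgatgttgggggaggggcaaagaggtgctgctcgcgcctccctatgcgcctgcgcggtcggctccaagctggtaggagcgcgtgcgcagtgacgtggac
Mxd1: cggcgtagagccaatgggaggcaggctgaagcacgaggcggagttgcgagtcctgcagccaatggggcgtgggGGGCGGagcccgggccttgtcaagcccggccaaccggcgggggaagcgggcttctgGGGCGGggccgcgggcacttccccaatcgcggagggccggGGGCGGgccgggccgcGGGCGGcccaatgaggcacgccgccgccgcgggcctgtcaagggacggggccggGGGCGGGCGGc
A match is a string of letters and not evidence of binding.

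**Figure D1:**
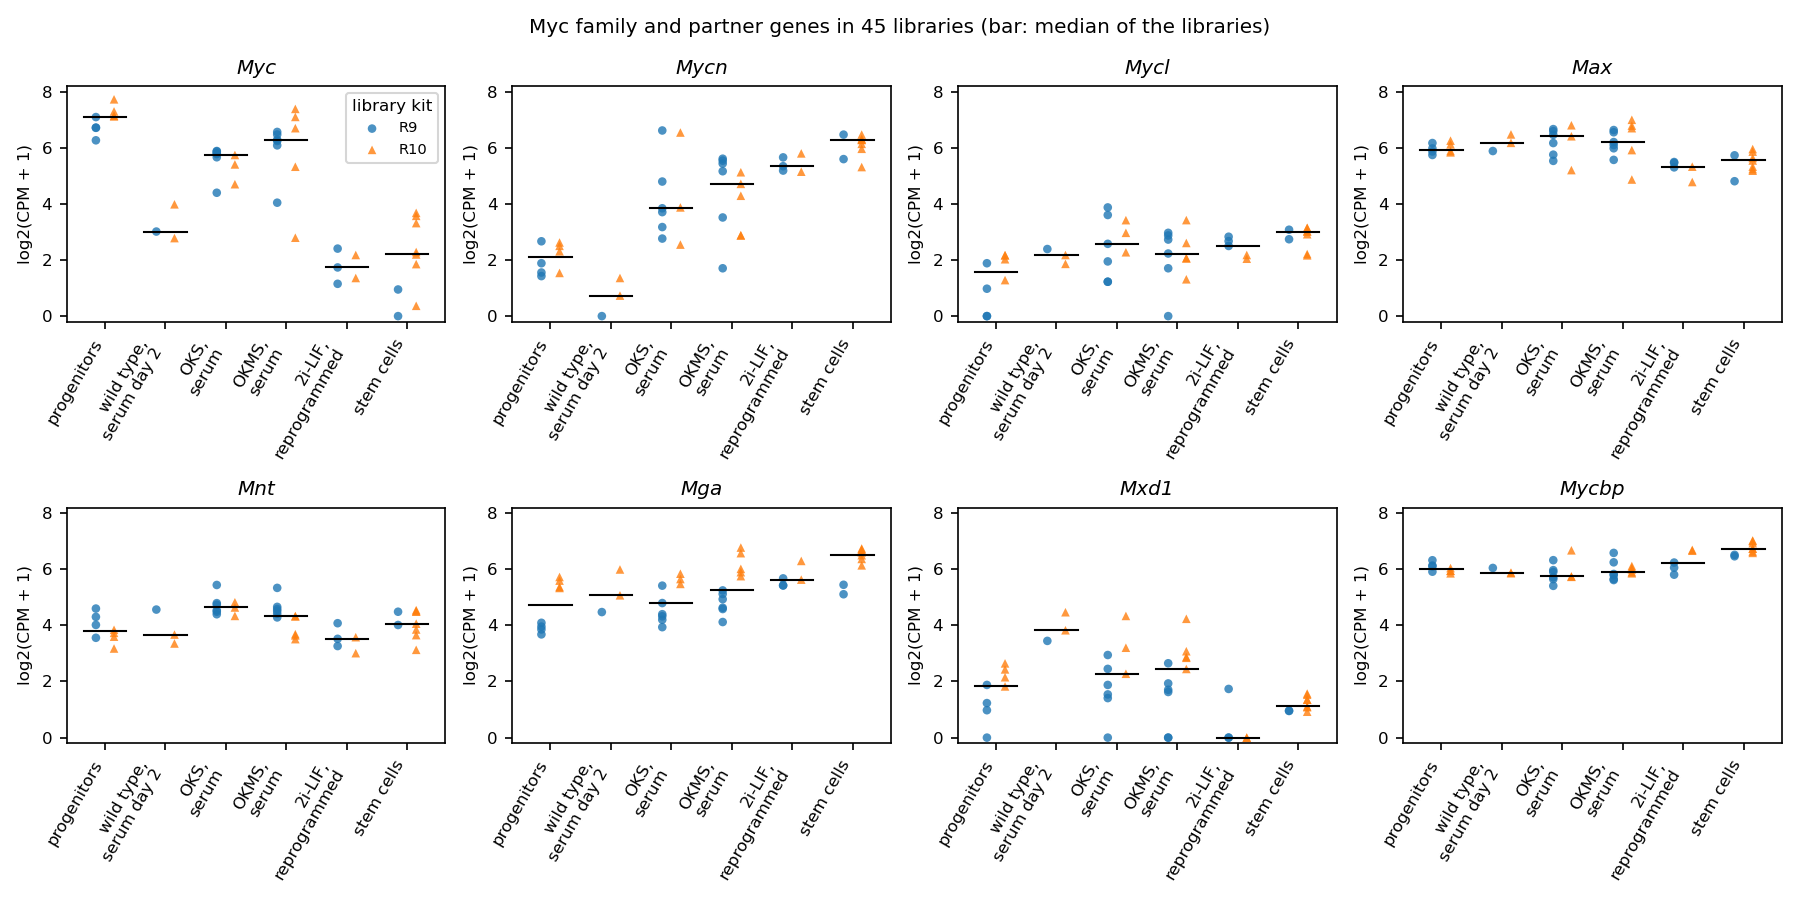
Expression of the 8 genes by group, as log2(CPM + 1) on the vertical axis; each point is a library (circles R9, triangles R10) and each bar is the group's median. Myc is highest in progenitors (median 137 CPM) and at most 11.8 CPM in stem cells, whereas Mycn runs the other way, from a median of 3.32 CPM in progenitors to 76.6 CPM in stem cells.

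Stem cells and progenitors held different family members. Myc was lower and Mycn higher in stem cells than in progenitors with both kinds of library, by limma on log2(CPM + 1) with Benjamini-Hochberg adjustment over all genes tested; a gene was called at an adjusted p under 0.05 and a difference of at least 1 on the log2 scale. Mga, the Polycomb-linked partner, was also called higher with both kinds, and Mycl was called higher in R9. In R10, 3 of 8 genes were called (2 higher, 1 lower) where 45.8% of all genes tested were called (22.4% higher, 23.5% lower), and in R9 4 of 8 (3 higher, 1 lower) where 36.0% were (17.6% higher, 18.4% lower), so the number called is near that of genes at large.

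Myc stood at 75.9 (OKS), 103.7 (OKMS), 104.3 and 135.5 CPM (wild type) in the R9 progenitors and at 137.7 and 210.6 (wild type), 140.2 (OKMS) and 156.0 CPM (OKS) in the R10 progenitors. In the R10 stem cells it was 10.9, 11.8 and, in the library without a number, 2.61 CPM for R1, 8.95 and 3.58 CPM for O4G, and 0.290 and 3.87 CPM for R1-Clone3. The R9 stem cells had 1 Myc read in R1 (0.931 CPM) and none in O4G. No stem cell library reached any progenitor library. The difference was -4.85 in R10 (SE 0.49, adjusted p 3.46e-07 by limma), 6.00 ± 4.49 CPM (SD, n = 7) against 161 ± 33.9 (SD, n = 4). In R9 it was -6.22 (SE 0.35, adjusted p 6.82e-05 by limma), a value that depends on the pseudocount because the stem cells had at most 1 read. Without the R1 library that has no number, the R10 difference of Myc was -4.75 (adjusted p 5.00e-07 by limma), and that library alone differed from the 4 progenitors by -5.47.

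Mycn stood at 1.69 to 5.35 CPM in the R9 progenitors, which is 1 to 4 reads, and at 1.91, 3.95, 4.67 and 5.16 CPM in the R10 progenitors. Stem cells had 47.3 (O4G) and 87.5 CPM (R1) in R9. In R10 they had 61.4, 69.5 and 78.6 CPM for R1, 76.6 and 87.6 CPM for O4G, and 38.7 and 76.9 CPM for R1-Clone3. Here too the groups did not overlap, and 1 of the 2 R1-Clone3 libraries was the lowest stem cell value. The difference was 3.86 in R10 (SE 0.24, adjusted p 1.26e-09) and 4.15 in R9 (SE 0.46, adjusted p 6.79e-04, both by limma). Without the R1 library that has no number the R10 value was 3.86 (adjusted p 1.99e-09), and that library alone gave 3.89.

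TPM values, transcript levels scaled to the library total after allowing for length, were used to set the 3 family members side by side. Mycn made up 0% to 3.08% of the summed Myc, Mycn and Mycl TPM in R9 progenitors and 0.835% to 5.20% in R10 progenitors. It made up 98.7% and 99.6% in the R9 stem cells and 89.9% to 99.4% in the R10 stem cells, so the main family transcript was Myc in every progenitor library and Mycn in every stem cell library. Mycl peaked at 1.83 TPM among progenitor libraries and at 1.02 TPM among stem cell libraries.

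**Figure D2:**
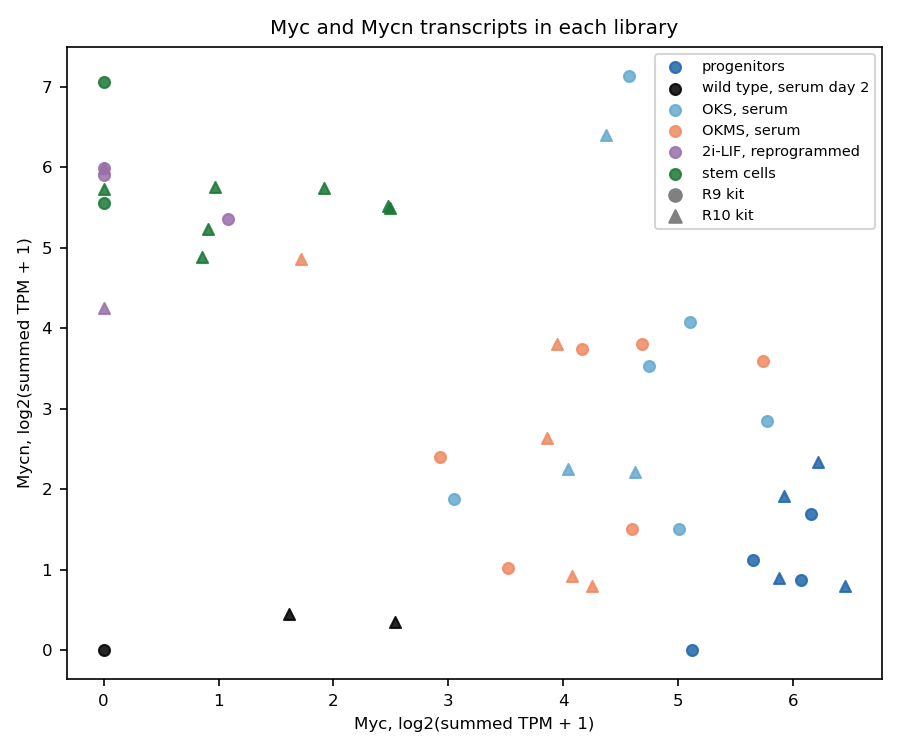
Summed TPM of Myc (horizontal) against Mycn (vertical), both as log2(TPM + 1), with a point for each library, marked by group. Progenitors lie at high Myc and low Mycn, and stem cells and 2i-LIF cells at low Myc and high Mycn. Serum libraries of OKMS and OKS cells spread between them, with Mycn shares from 3.84% to 90.0%. These serum shares are not strictly alike. At days 2 to 6 the ratio of Myc TPM to Myc CPM was 0.0953 to 0.264 in OKMS and 0.362 to 0.977 in OKS.

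Mga, whose protein brings MAX to Polycomb, was 11.8 to 16.0 CPM in R9 progenitors against 33.5 and 42.6 CPM in R9 stem cells, a difference of 1.38 (SE 0.22, adjusted p 0.00307 by limma). In R10 it was 39.3 to 51.8 CPM in progenitors against 69.5 to 105.9 CPM in stem cells, a difference of 1.03 (SE 0.14, adjusted p 1.01e-05), with no overlap. The R10 call rests on the size threshold: it was 0.97 to 1.00 when any of 4 single libraries was left out (the OKS progenitors, wild-type progenitor replicate 3, R1 replicate 1 or R1-Clone3 replicate 1). With the R1 library without a number alone it was 0.63, and without that library it was 1.09 (adjusted p 8.69e-07 by limma). Leaving that library out gave 3 of 8 genes called as before, and 14 of 34 tested member transcripts. Every R10 progenitor library lay above every R9 one for Mga, so its level is compared within a kind of library only.

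Mycl, the remaining family member, was 0 to 2.69 CPM in R9 progenitors and 5.68 and 7.45 CPM in R9 stem cells (2.19, SE 0.60, adjusted p 0.0256 by limma). That call is fragile, and the progenitors hold at most 2 reads. It was lost with a pseudocount of 0.25 (adjusted p 0.0649 by limma) and with DESeq2 (adjusted p 0.100). It was also lost without the O4G library (2.36) or the R1 library (2.02), each of which leaves 1 stem cell library. The cause of these losses was not tested. In R10, Mycl was 1.43 to 3.51 CPM against 3.49 to 7.84 CPM, and its difference of 0.89 (adjusted p 0.00867) fell short of the size threshold.

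The other partners differed by less. MAX is the obligate partner of the whole network, and its gene gave -0.49 in R10 (46.2 ± 10.0 CPM, SD, n = 7, against 64.5 ± 9.05, SD, n = 4, adjusted p 0.0177 by limma) and -0.67 in R9 (adjusted p 0.0999). Mycbp, named for its product's binding to the MYC amino terminus, gave 0.86 in R10 (112 ± 14.0 CPM, SD, n = 7, against 60.7 ± 3.27, SD, n = 4, adjusted p 1.30e-05) and 0.37 in R9 (adjusted p 0.0935). Mxd1, a repressor that rises as cells differentiate, was at 1.45 ± 0.40 CPM (SD, n = 7) against 3.91 ± 1.18 (SD, n = 4) in R10, a difference of -0.99 (adjusted p 0.00107) that passed the size threshold with edgeR (-1.27) and DESeq2 (-1.27). In R9 Mxd1 gave -0.07 (adjusted p 0.928). Mnt, the widely expressed MAX partner and repressor, gave 0.45 (adjusted p 0.151) and 0.13 (adjusted p 0.783).

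The rest of the network and its targets were described by lists of genes, which were also chosen with earlier results of these data known. Of 6 other members of the MAX and MLX network, 2 were lower and 1 higher in stem cells in R10, and also in R9. Mxd4, a MAX-binding repressor, was at 1.12 CPM in stem cells against 63.7 in progenitors in R10 (-5.01) and gave -4.70 in R9. Mxd3, of the same family, was at 7.47 against 63.3 CPM (-2.91) and gave -1.90 in R9, and Mlxipl, a glucose-sensing MLX partner, gave 2.43 and 3.43. Mxi1 gave -0.12 (adjusted p 0.674 in R10) and -0.36, and Mlx gave 0.24 (adjusted p 0.144 in R10) and 0.09, and neither was called. Pvt1, the long non-coding RNA downstream of Myc, was at 4.00 against 4.86 CPM in R10 (-0.17, adjusted p 0.690) and was called lower in R9 (1.89 against 13.2 CPM, -2.61, adjusted p 0.0244 by limma).

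Among 11 genes of the MGA complex, 4 were higher and 3 lower in R10, with a median of 0.70 where the median over all genes was 0.01, and 4 were higher and 1 lower in R9. Over all genes, 22.4% were higher and 23.5% lower in R10, and 17.6% and 18.4% in R9, so the counts of this list are not far from those of genes at large. Rybp (2.49) and L3mbtl2 (1.34) were the largest increases in R10 and Pcgf6 (2.73) and Tfdp2 (2.01) in R9. Yaf2, a relative of Rybp in these complexes, was lower with both (-2.99 and -3.45), and the ubiquitin ligase gene Ring1 was lower in R10 (-2.30). Of 34 genes of nucleolus, ribosome assembly and metabolism listed as MYC growth targets, 10 were higher and 2 lower in R10 (median 0.63), and 13 were higher and 1 lower in R9 (median 0.82, all genes -0.07). The telomerase gene Tert (3.76 and 2.92, with no read in progenitors) and the transferrin receptor gene Tfrc (2.07 in R10) were among those higher. Ldha, for lactate dehydrogenase, was lower with both (-1.30 and -1.02). Of 7 MYC-repressed genes, none was higher with either kind; 1 was lower in R10 (Gadd45a -2.20; list median -0.72) and 3 were lower in R9 (among them Gadd45a -1.52 and Klf6, a zinc finger transcription factor gene, -1.51; list median -0.89). Of 12 MYC cofactors, Mycbp2 was lower with both (-1.75 and -1.31), and Wdr5, whose product reads histone H3 and binds MYC, was higher in R9 (543.9 against 94.3 CPM, 2.53). Of 10 genes for MYC turnover 1 was higher in each (Cip2a 1.06 in R10, Usp28 1.33 in R9).

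Myc was lower in wild-type cells kept in serum medium with LIF and doxycycline than in wild-type progenitors in NPC medium. R10 libraries of these cells on day 2 were compared with those of the progenitors; serum, doxycycline, LIF, the loss of EGF, FGF-2 and heparin, and the time in culture cannot be told apart. Myc was 5.87 and 14.8 CPM in serum against 210.6 and 137.7 CPM before, a difference of -4.04 (SE 0.46, adjusted p 0.00393 by limma). The R9 library of serum-treated wild-type cells had 7.07 CPM against 104.3 and 135.5 CPM. Mxd1 moved the other way, to 21.1 and 13.2 CPM from 2.54 and 3.44 CPM (2.16, SE 0.42, adjusted p 0.0172), with 9.90 CPM in R9. These were 2 of 8 genes called where 26.8% of all genes were called (14.9% higher, 11.9% lower).

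With 2 libraries a side, a lack of overlap says little: the R10 groups of Mycn did not overlap either, and it was not called there. The groups of Myc and of Mxd1 did not overlap. With a library left out, a side has 1 sample that is assumed to vary like the rest, and neither call was kept: adjusted p was 0.0581 to 0.177 for Myc (-3.44 to -4.64) and 0.0814 to 0.222 for Mxd1 (1.84 to 2.48). Mycn was at 1.57 and 0.659 CPM against 1.91 and 5.16 CPM (-1.04, adjusted p 0.188), and was called with both kinds of library together (-1.47, adjusted p 0.0355 by limma). The other 5 genes differed by 0.29 or less.

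The growth targets were lower too: 29 of 33 tested were lower and 0 higher, with a median of -2.08 where the median over all genes was 0.12. Their summed CPM was 10900 to 13652 in the 8 progenitor libraries and 3521, 3713 and 3732 in the 3 serum-treated wild-type libraries. Srm, for spermidine synthase, fell by 3.84 and the ribosome assembly gene Ppan fell by 2.75. Left-out libraries ended most of these calls (0 to 5 were called) at medians of -2.01 to -2.17. Markers of another cell type moved as well: summed CPM of 3 astrocyte markers was 4.04 to 16.4 in progenitors and 1624, 2065 and 4132 in serum-treated wild-type cells, and all 3 were called higher. Of the other markers tested in R10, 2 of 4 mesenchymal (median 2.86) and 1 of 2 neuron markers (median 1.10) were called higher, and 3 of 6 neural progenitor (median -0.72) and 1 of 4 pluripotency markers (median -0.34) lower. The part of these markers in the results for Myc and the growth targets was not tested.

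Some genes of the other lists were called, in both directions, where 14.9% of all genes were higher and 11.9% lower. With any of the 4 libraries left out, none of the turnover, cofactor, MGA complex and network genes was called, and in 3 of these 4 fits no gene of the whole table was (3300 to 5486 had an unadjusted p under 0.05 by limma; edgeR and DESeq2 were not run on them). Of 10 turnover genes 4 were lower, among them the mitotic kinase Aurka (-4.43) and Cip2a (-3.84), whose product shields MYC from dephosphorylation. Of 12 cofactors 4 were lower and 1 higher, with Ruvbl2 at -2.27, Ruvbl1 at -2.14 and Mycbp2 at 1.45. Of 11 MGA complex genes 5 were lower (Tfdp1 -1.64, L3mbtl2 -1.44). Within the network, Mxd3 was lower (-4.17), and Mxd4 (1.34) and Mlxip (1.92) were higher. Of 7 genes known to be repressed by MYC, Cdkn2b was higher (1.61) and Cdkn1a lower (-2.79), and at most 1 was called with any library left out.

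**Figure D3:**
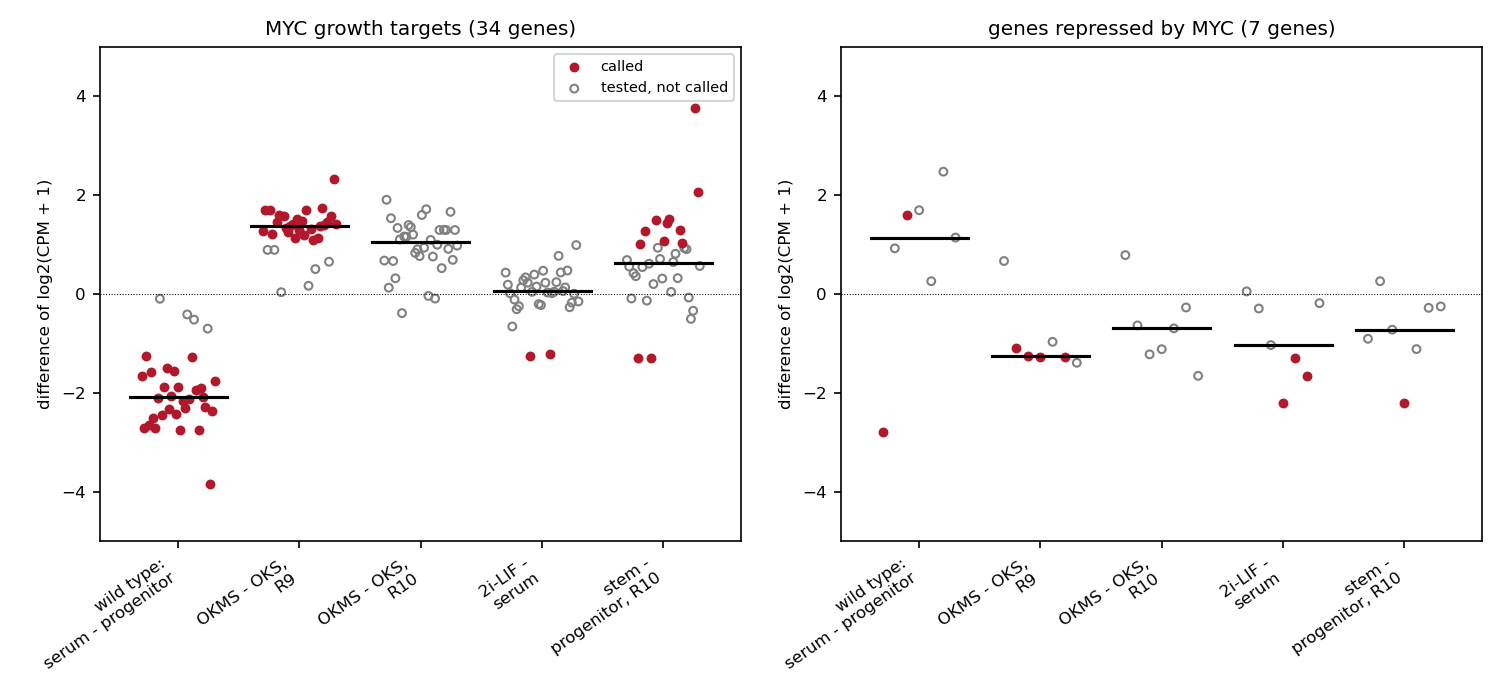
Log2 differences (vertical) of each gene of the growth target list (34 genes) and the MYC-repressed list (7 genes) in 5 comparisons (horizontal). Filled red points were called, open points were tested and not called, and bars are medians. Growth targets lie below 0 for wild-type cells in serum (median -2.08) and above 0 for OKMS against OKS in R9 (median 1.38).

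With the medium held the same, day 2 cells carrying factors were compared with wild-type cells, pooling R9 and R10 with the kind of library as a term. Libraries of both kinds carry the same system, day and, where given, replicate number, and may be repeat runs on 1 RNA; the labels do not tell, so n in the pooled fits may be too high. Myc was 74.6 and 102.8 CPM in OKMS cells, 20.1 and 25.0 CPM in OKS cells, and 5.87, 7.07 and 14.8 CPM in wild-type cells, so that each factor group lay above the wild type. The difference over both systems was 2.31 (SE 0.56), with an adjusted p of 0.0656 by limma that misses the threshold. It passed with edgeR (2.56, adjusted p 0.0480) and DESeq2 (2.60, adjusted p 0.00253), and for OKMS cells alone (3.28, adjusted p 0.00562 by limma). The R10 libraries alone gave 2.32 (adjusted p 0.162). Whether reads of the supplied MYC are counted in the OKMS values is not given. The annotated Myc transcript was at 2.28 and 4.90 TPM in OKMS, 7.27 and 6.85 TPM in OKS and 0 to 3.05 TPM in wild-type cells. Mycn was at 5.36 ± 2.44 CPM (SD, n = 4) against 0.742 ± 0.786 (SD, n = 3), a difference of 1.98 (adjusted p 0.0986). Mxd1 was at 4.87 ± 2.88 CPM (SD, n = 4) against 14.7 ± 5.78 (SD, n = 3), or -1.33 (adjusted p 0.182). None of the 8 genes was called, where 1.48% of all genes were (1.40% higher, 0.0831% lower). At an unadjusted p under 0.05, Myc, Mycn and Mxd1 passed. Of the growth targets 1 of 33 was called (Fbl, for fibrillarin, 2.13), with OKMS cells alone 26 were (median 2.18; 1141 of all 16037 genes were called), and with OKS cells alone 0 were (median 0.16; 14 of all 16136 genes were called). The difference between OKMS and OKS at day 2 alone was not tested. Cip2a was higher over both systems (3.20). Of the markers, 2 of 6 pluripotency, 1 of 2 tested neuron and 1 of 4 mesenchymal markers were called higher. Summed astrocyte markers were 496 and 704 CPM in OKMS, 1325 and 1383 CPM in OKS and 1624 to 4132 CPM in wild-type cells, with none of the 3 called. Their part in these differences was not tested.

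The OKMS and OKS systems differ in whether MYC is supplied. Over the 6 days sampled with R9 in serum, none of the 8 genes was called between OKMS and OKS with day as a block, where 18% of all genes (2567 of 14277) were called, 6.93% higher and 11% lower in OKMS. With each library centred on its median, 53.8% of the calls over all genes were higher in place of 38.6%. None of the 8 had an unadjusted p under 0.05 by limma, and none was called with edgeR or DESeq2. The MYC growth targets did differ: 27 of 33 tested were higher in OKMS and 0 lower.

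The order of OKMS and OKS for Myc was not the same on all days sampled. In R9 it was higher in OKMS at day 2 (74.6 against 20.1 CPM), day 4 (87.6 against 57.2), day 6 (66.9 against 54.9), day 14 (77.0 against 53.8) and day 20 (93.6 against 49.6). At day 10 the order was the opposite, with 15.5 CPM in OKMS against 58.0 in OKS. In R10 it was higher in OKMS at day 2 (102.8 against 25.0 CPM) and day 6 (136.0 against 41.4) and lower at day 18 (5.94 against 52.5). OKMS cells sampled in R10 without an OKS partner had 166.0 CPM at day 4 and 39.0 CPM at day 10. Before induction the progenitors had 103.7 (OKMS) against 75.9 CPM in R9 and 140.2 against 156.0 CPM in R10. OKMS was thus the higher of the pair at every day from day 2 to day 6 in both kinds of library, and its R9 day 10 and R10 day 18 values were below all OKS values from days 4 to 20. Those low OKMS values rest on 11 and 4 reads.

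Over the 6 R9 days Myc differed by 0.38 (SE 0.35, adjusted p 0.437 by limma), and a two-sided exact sign-flip permutation test over the days gave p = 0.46875, with OKMS higher in 5 of 6 pairs. With a day left out, the mean ran from 0.092 without day 2 (exact p 0.9375) to 0.83 without day 10, the only day with the opposite sign (exact p 0.0625, the smallest that 5 pairs allow). The 3 R10 pairs gave 0.25 (SE 0.88, adjusted p 0.904), and without day 18 they gave 1.84 (adjusted p 0.0311), without day 2 -0.63 (adjusted p 0.937) and without day 6 -0.48 (adjusted p 0.996). The change of the difference from early days (2, 4 and 6) to late days (10, 14 and 20) was -1.05 (SE 0.65, adjusted p 0.707), and no gene of the whole table was called in that test (1406 had an unadjusted p under 0.05, with 84 called by edgeR and 5 by DESeq2).

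Mycn followed another order. OKMS cells had 2.26 (day 2), 10.4 (day 4), 42.3 (day 6), 47.8 (day 10), 34.8 (day 14) and 45.6 CPM (day 20) in R9. OKS cells had 8.02, 13.4, 12.0, 26.8, 5.79 and 97.0 CPM on the same days. In R9, Mycn was thus near its highest OKMS level by day 6, while among OKS days only day 20 exceeded it. The mean difference was 0.35 (SE 0.46, adjusted p 0.606 by limma), with OKMS higher on 3 of 6 days. In R10 the pairs were 6.32 against 4.85 CPM at day 2, 18.5 against 13.7 at day 6, and 25.2 against 92.2 at day 18, with 6.38 and 33.9 CPM in OKMS at days 4 and 10. The last serum day of each kind of library was the one with most Mycn in OKS cells.

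**Figure D4:**
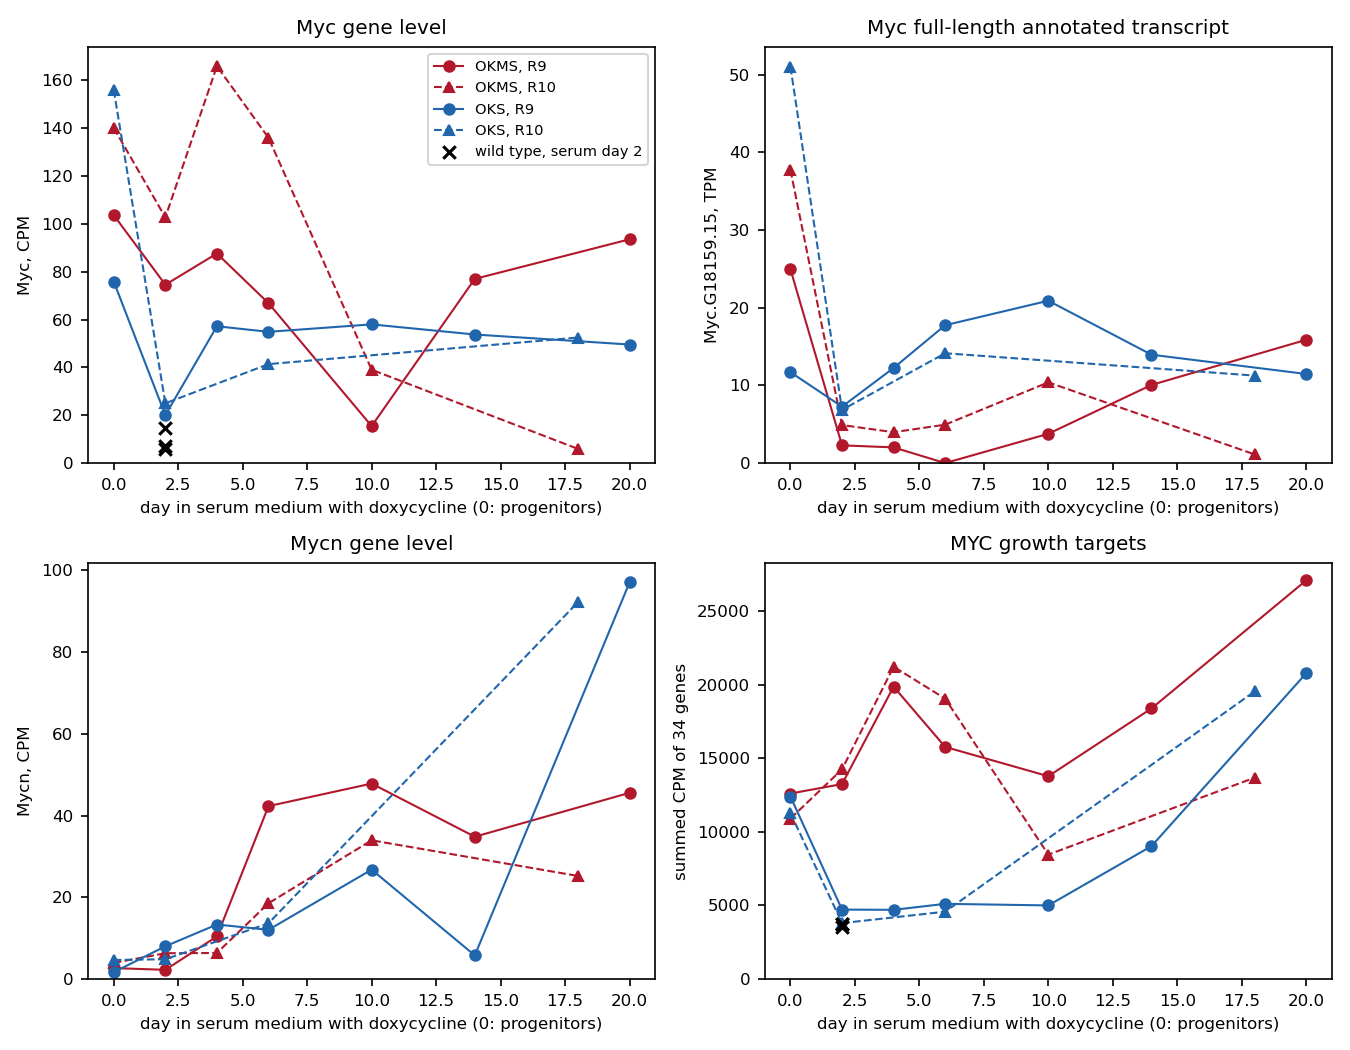
Myc CPM, TPM of the full-length Myc transcript, Mycn CPM and summed CPM of 34 growth targets by day in serum (day 0 is progenitors). OKMS is red, OKS blue and wild type a black cross; solid lines with circles are R9 and dashed lines with triangles R10, each point a library. Myc CPM of OKMS lies above OKS from day 2 to day 6 and below it at R9 day 10 and R10 day 18, and the growth targets in OKS stay at 3801 to 5110 CPM from day 2 to day 10.

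For the partners, R9 gave mean differences of -0.32 for Mycl, -0.02 for Max, -0.10 for Mnt, 0.26 for Mga, -0.38 for Mxd1 and 0.13 for Mycbp. In R10, where no gene of the whole table was called (0%, with 2389 at an unadjusted p under 0.05, 0 called by edgeR and 349 by DESeq2; none of the 8 reached that unadjusted p), Mnt was 10.4 to 19.0 CPM in OKMS and 19.2 to 27.3 CPM in OKS. It was lower in OKMS in 3 of 3 pairs without overlap (-0.78, adjusted p 0.412). Mga was higher in OKMS in 3 of 3 pairs (0.52, adjusted p 0.510). With 3 pairs these differences did not pass the test.

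For the growth targets the median difference was 1.38 in R9 where the median over all genes was -0.11, with Tfrc at 2.33 and Rrp12, a ribosome export gene, at 1.74. Of 34 genes, 33, 31 and 33 were higher in OKMS at days 2, 4 and 6, and 30, 33 and 29 at days 10, 14 and 20, against 20 before induction. Summed CPM in OKMS was 13243, 19857 and 15766 at days 2, 4 and 6 in R9. In OKS it was 4718, 4703 and 5110, close to the 3521 to 3732 CPM of wild-type cells in the same medium, and then 5002, 9027 and 20769 at days 10, 14 and 20. OKMS had 13775, 18377 and 27077 at those later days. In R9, OKS targets were thus at the stem cell level (16883 to 19723) or above only at day 20, and OKMS targets were above the progenitor range at each R9 day from day 4 on.

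In R10, OKMS cells without an OKS partner had summed targets of 21213 CPM at day 4 and 8451 CPM at day 10. The day 10 value lay below all progenitor values. The R10 pairs (OKMS against OKS) were 14241 against 3801 CPM at day 2 and 19042 against 4577 at day 6. The order turned at day 18, with 13678 against 19535. None of 34 was called over those 3 days (median 1.05; at day 18 only 1 of 34 was higher in OKMS); without day 18, 23 of 33 were (median 2.12), with 453 of all 15441 genes higher. In R9 the days before day 10 alone gave 30 higher (median 1.90), with 1226 of all 14659 genes higher. The later days alone gave 0 of 34 (median 0.81), with 12 of all 15126 genes higher, and without day as a block none was called, with 2 of all 14277 genes called. The zeros of these last fits thus stand beside few calls of any kind. With each library centred on its median, which shifts all genes by 0.15, the count was 29.

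In R9, some genes of the other lists were called, and in R10 none was. Of 7 MYC-repressed genes, 4 were lower in OKMS in R9 (median -1.24; -0.69 in R10), among them the stress genes Gadd45a (-1.27) and Ndrg1 (-1.26). Cdkn1a, a cell cycle inhibitor gene of that list, was not called and lay the other way, with OKMS higher in 5 of 6 R9 pairs (0.67, adjusted p 0.153 by limma) and 3 of 3 R10 pairs (0.79, adjusted p 0.315). Of 10 turnover genes 4 were higher, with Aurka at 1.85 and Skp2, a ubiquitin ligase subunit for MYC, at 1.72. Of 12 cofactors 3 were higher (Ruvbl2 1.36, Wdr5 1.20). Of 11 MGA complex genes Pcgf6 (1.30) and L3mbtl2 (1.18) were higher and Ring1 lower (-1.30), and of 5 tested other network genes Mxd4 was lower (71.2 against 144.7 CPM, -1.22).

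Cell type markers moved with the systems. Summed astrocyte markers were higher in OKS in 9 of 9 pairs (90.9 to 1684 CPM against 35.7 to 704), as were mesenchymal markers (373 to 2465 CPM against 69.7 to 590) and neural progenitor markers. Pluripotency markers were higher in OKMS in 7 of 9 pairs, for example 4909 against 84.8 CPM at R9 day 10 and 15642 against 5676 at R10 day 18. Of these lists, 3 of 3 astrocyte, 3 of 4 mesenchymal and 4 of 6 neural progenitor markers were called lower in OKMS in R9, and 3 of 6 pluripotency markers higher. Summed neuron markers were higher in OKMS in 8 of 9 pairs, and the 1 neuron marker tested in R9 was called higher (1.14). The neuron markers were also higher in stem cells than in progenitors, as given above. The part of all these markers in the differences of Myc, Mycn and the growth targets was not tested.

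Single transcripts gave a different picture of Myc. The model that matches the annotated Myc transcript (2355 bases, 3 exons of 568, 772 and 1015 bases, at chr15:61985384-61990360) made up 63.5% of Myc TPM in R10 progenitors, with 44.0 ± 8.82 TPM (SD, n = 4) against 1.48 ± 1.43 (SD, n = 7) in stem cells (-4.37, SE 0.41, adjusted p 1.81e-06 by limma over all transcripts). In OKMS cells in R9 it was at 25.0 TPM at day 0 and then 2.28, 2.02, 0, 3.77, 10.1 and 15.9 TPM on days 2, 4, 6, 10, 14 and 20. In OKS cells it was at 11.7 TPM and then 7.27, 12.3, 17.8, 20.9, 14.0 and 11.5 TPM. The annotated transcript was thus lower in OKMS than in OKS at days 2 to 6, where the gene's CPM was higher in OKMS.

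R10 showed the same order. OKMS had 37.8 TPM at day 0 and 4.90, 3.98, 4.95, 10.4 and 1.12 TPM at days 2, 4, 6, 10 and 18, and OKS had 51.0 TPM and then 6.85, 14.1 and 11.3 TPM at days 2, 6 and 18. The ratio of this transcript's TPM to the gene's CPM, chosen after its values were seen, was 0.154 to 0.327 in 8 progenitor libraries and 0 to 0.0477 in the 6 OKMS libraries of days 2 to 6. It was 0.214 to 0.362 in the 5 OKS libraries of those days. From day 10 on it was 0.131 to 0.266 in OKMS (n = 5) and 0.215 to 0.360 in OKS (n = 4). The early OKMS libraries therefore lay below these 4 sets, and the later ones overlapped with progenitors and OKS. The ratio was also 0 in all 5 libraries in 2i-LIF, the R9 wild-type library in serum, R9 R1 and 1 R1-Clone3 library, each of which had 5 or fewer Myc reads. Summed over all Myc transcripts the ratio was 0.0953 to 0.264 in early OKMS cells, 0.362 to 0.977 in early OKS cells and 0.411 to 0.673 in progenitors. As a test of the transcript alone, OKMS against OKS in R9 gave -1.65 (adjusted p 0.141), and none of 18 tested transcripts of the 8 genes was called where 2.38% of all transcripts were.

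All 20 kept Myc transcript models start 344 to 2161 bases before the annotated coding start (position 61987522), and 15 end past the coding end (61989908). A model that starts at the coding sequence is not among them. Whether reads of the supplied MYC are counted in the Myc gene row is not given in the sources used here, so that native and supplied Myc RNA cannot be told apart in CPM. An antisense row at Myc held 1.34 to 11.8 CPM in progenitors and 0 to 1.12 CPM in stem cells and 2i-LIF cells. The use of strand in counting is not given either, and reads of the gene and of its antisense partner may be mixed.

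In all, 13 of 37 tested transcripts of the 8 genes were called between R10 stem cells and progenitors, where 39.8% of all transcripts were. All 4 tested Myc transcripts were lower, 4 of 5 Mycn transcripts and 3 of 16 Mycbp transcripts were higher, 1 of 5 Max transcripts and the single Mxd1 transcript tested were lower, and none of 6 Mga transcripts was called. For Max, models with and without a short coding exon were found, which adds 9 codons near the amino terminus, before the DNA-binding basic region. The annotated model with it (160 codons) was at 6.85 ± 2.51 TPM (SD, n = 4) in progenitors against 2.80 ± 0.859 (SD, n = 7) in stem cells (-1.02, adjusted p 0.00738 by limma). The most expressed model without it (151 codons) differs in more than that exon, since it also starts further upstream with 2 more exons, of 17 and 110 bases, and has a first shared exon of 301 in place of 242 bases. It was at 14.0 ± 6.35 against 7.70 ± 2.48 TPM (-0.74, adjusted p 0.0661). They made up 15.1% and 31.0% of Max TPM in progenitors and 9.07% and 24.9% in stem cells, so the model without the exon was the larger in both. The exon lies at chr12:76961263-76961289 on the minus strand, and is shown in capitals with 15 coding bases on each side, from the GENCODE transcripts.
Max exon: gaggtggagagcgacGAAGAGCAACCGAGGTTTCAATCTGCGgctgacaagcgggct
The difference between these 2 differences was not tested.

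By TPM, Mycn had a pair of leading models in R10 stem cells. The annotated-length model of 2595 bases and 3 exons was at 17.5 ± 6.28 TPM (SD, n = 7) against 0.842 in progenitors (3.28), or 39.4% of Mycn TPM. A second model of 585 bases and 2 exons (32 and 553 bases, chr12:12936097-12941839) joins bases near the start of the gene to its last exon by a splice site outside the annotation, and leaves out the coding sequence. It was at 18.9 ± 3.97 TPM (SD, n = 7) in stem cells and at 0 in every progenitor library (4.29, adjusted p 7.38e-09 by limma), or 42.6% of Mycn TPM. TPM is divided by length, so at like TPM the model of 585 bases rests on fewer reads than that of 2595 bases. These shares of TPM are therefore not shares of reads. The shorter model was listed at 0 in all serum libraries up to day 10, at 10.5 TPM in OKS day 14, and at 92.4 TPM in OKS day 20 against 0 in OKMS day 20. At day 18 it was at 41.2 TPM in OKS and 13.5 TPM in OKMS, and the 5 libraries in 2i-LIF had 4.85 to 48.8 TPM. The lower of these values rest on few reads. The whole Mycn gene held 7 reads in OKS day 14 and 17 in OKMS day 18. It held 22 in OKS day 18 in 2i-LIF, the library with 4.85 TPM. In OKMS at days 10, 14 and 20 of R9 serum, Mycn was at 34.8 to 47.8 CPM and this model was listed at 0. All Mycn models together held only 4.30, 12.9 and 11.1 TPM in those libraries, against 139.6 TPM in OKS day 20. With so little TPM on any Mycn model, a listed 0 there does not show that this model was absent.

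Over the time course shared by both systems in R9 serum, Mycn was the only one of the 8 genes called (1 of 8, where 10.7% of all genes were, 5.50% higher and 5.24% lower). The moderated F test of limma, taken jointly over all 6 days, gave an adjusted p of 0.0305, and the differences were 0.78, 2.02, 2.92, 3.55, 2.31 and 4.42 at days 2, 4, 6, 10, 14 and 20. These are means over both systems, and no day was tested singly. OKMS alone was not above its progenitors at day 2 (2.26 against 2.69 CPM, 2 reads each). The call was lost without day 20 (adjusted p 0.152, largest difference 3.55 at day 10), with quantile normalization (adjusted p 0.0532) and when any of 7 single libraries was left out (adjusted p 0.0509 to 0.108). Myc gave -1.17, -0.32, -0.54, -1.52, -0.46 and -0.38 on those days (adjusted p 0.456), and was called when the day 10 OKS library was left out (-2.83, adjusted p 0.0335).

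The remaining genes were not called over time. The largest difference from day 0 was 1.601 for Mnt (day 10), 1.56 for Mga (day 20), 2.22 for Mycl (day 10), 1.58 for Mxd1 (day 10), 0.81 for Max (day 4) and 0.43 for Mycbp (day 20). Of the network, Mxd4 (-3.36 at day 20, but 0.85 as the largest difference without day 20) and Mxd3 (-2.39 at day 10) were called lower, and the MGA complex gene Pcgf6 higher (2.82). Of the MYC-repressed genes 3 of 7 were higher, led by Ndrg1 (3.04 at day 10), and 0 to 5 were when single libraries were left out. Only 1 growth target was called by limma (Bysl, -1.68, which turned to 1.59 without the OKS progenitors), and edgeR called 19 higher and 12 lower. Over the same days 6 of 6 neural progenitor markers were called lower (median -6.24). Called higher were 5 of 6 pluripotency (8.10), 2 of 3 astrocyte (6.92), 2 of 4 mesenchymal (2.12, with 1 lower) and 1 of 2 tested neuron markers (3.63). Their part in the changes of Mycn and of the lists was not tested.

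Cells of the same system and day in 2i-LIF and in serum formed 5 pairs, 3 in R9 and 2 in R10, tested with the pair as a block. The media differ in serum, in the kinase inhibitors and in doxycycline, which is not listed for 2i-LIF. These cannot be told apart, nor can native and supplied Myc RNA in the OKMS pairs. Myc was the only one of 7 genes tested that was called (1 lower), where 12.3% of all genes were called (5.95% higher, 6.32% lower). It was 1.22 CPM in 2i-LIF against 77.0 in serum for OKMS at day 14, 4.30 against 93.6 for OKMS at day 20, and 2.33 against 49.6 for OKS at day 20. In R10 it was 3.53 against 5.94 for OKMS at day 18 and 1.56 against 52.5 for OKS at day 18. Myc was lower in 2i-LIF in 5 of 5 pairs, and the smallest difference belongs to the serum library that was itself low. In 2i-LIF all 5 values rest on 4 reads or fewer. The difference was -3.64 (SE 0.52, adjusted p 1.12e-04 by limma), from 55.7 ± 33.2 (SD, n = 5) to 2.59 ± 1.30 CPM (SD, n = 5). The R10 pairs alone gave -2.50 (adjusted p 0.253). The full-length Myc transcript was lower too (-3.18, adjusted p 0.0240), the only one called of 25 transcripts tested where 1.84% of all transcripts were.

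**Figure D5:**
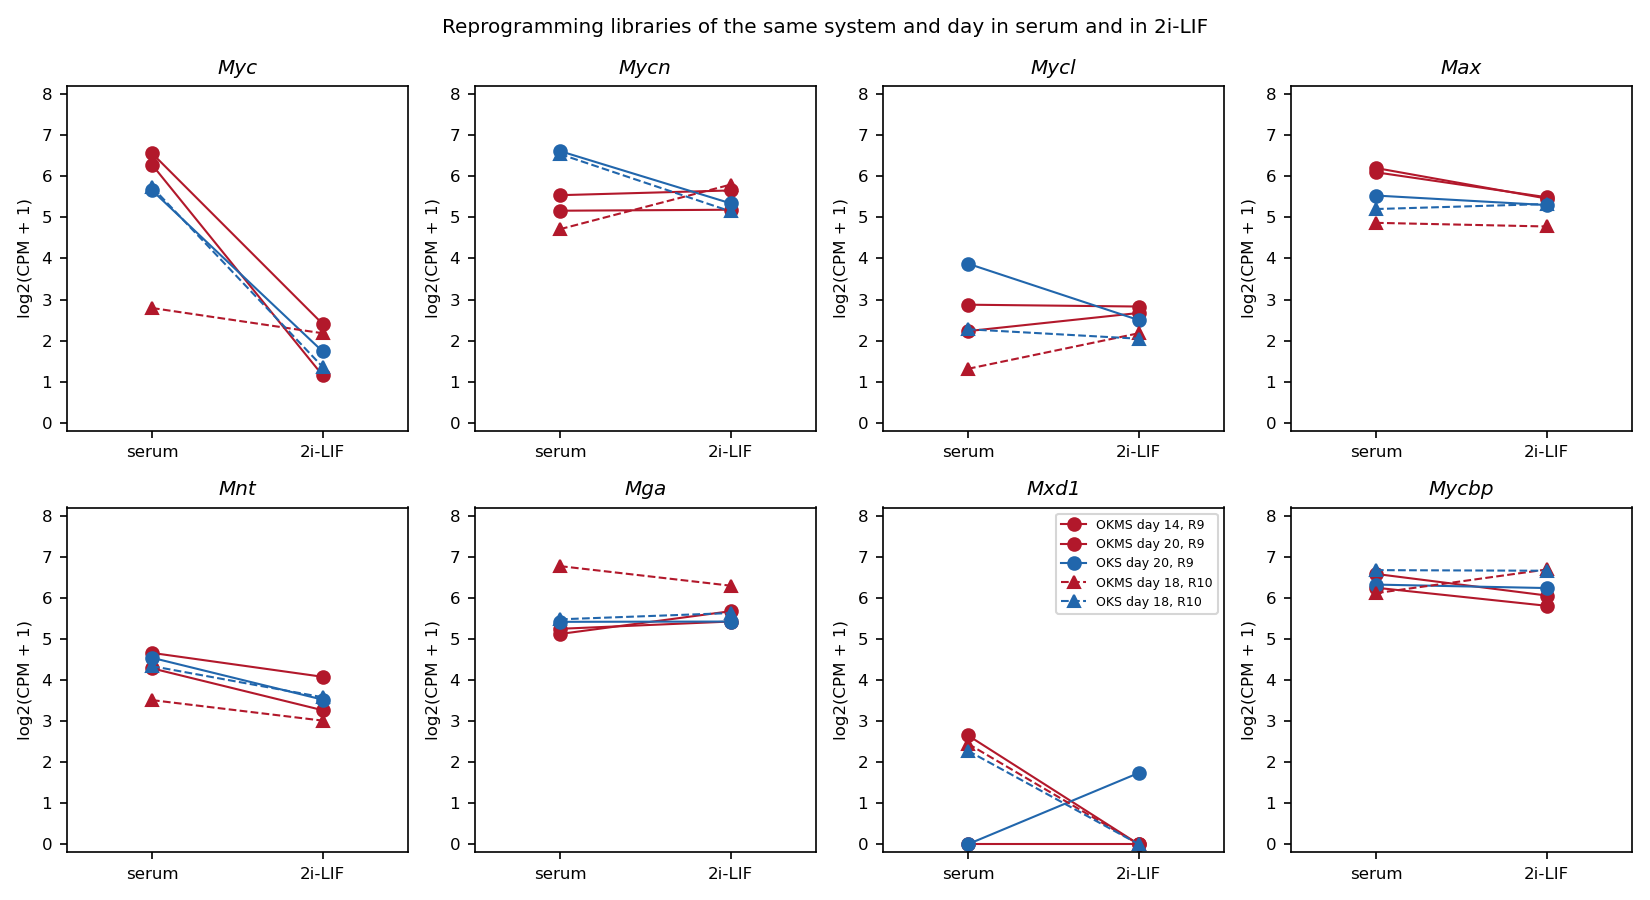
The 8 genes as log2(CPM + 1) in the 5 pairs of serum and 2i-LIF libraries; each line joins the libraries of the same system, day and kind. Myc is lower in 2i-LIF in each pair, least for OKMS at day 18 (5.94 against 3.53 CPM), while Mycn is higher in 3 pairs and lower in 2.

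The Mycn pairs had no common direction. Its pairs (2i-LIF against serum) were 35.4 against 34.8, 49.4 against 45.6 and 54.7 against 25.2 CPM in OKMS at days 14, 20 and 18, and 39.6 against 97.0 and 34.4 against 92.2 CPM in OKS at days 20 and 18. It was lower in 2i-LIF in both OKS pairs and not lower in the 3 OKMS pairs, and over all it differed by -0.29 (adjusted p 0.599); a difference between the systems was not tested. Mnt was lower in 2i-LIF in 5 of 5 pairs (-0.78, adjusted p 0.125). Mxd1 did not pass the filter on low values, with 0 reads in 4 of the 5 libraries in 2i-LIF and in 2 of the 5 in serum. Differences were -0.31 for Max, 0.08 for Mga, -0.07 for Mycl and -0.10 for Mycbp.

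With Myc low, the growth targets in 2i-LIF stood at 16691 to 20837 CPM, against 16883 to 19723 CPM in stem cells. Of 34 tested, 2 were lower than in serum (Ldha -1.25, and Odc1, for ornithine decarboxylase, -1.21) and none higher, with a median of 0.06. The pairs went both ways. In OKMS, 29, 29 and 9 of 34 were higher in 2i-LIF at days 14, 18 and 20 (medians 0.37, 0.60 and -0.52). In OKS, 14 were at day 18 and 14 at day 20 (medians -0.14 and -0.05). Of 7 MYC-repressed genes 3 were lower (Gadd45a -2.20, Ndrg1 -1.66). Mxd4 (-2.09) was lower, and Mlxipl (2.14) and Wdr5 (1.13) were higher. Of the markers, 4 of 6 for pluripotency were higher in 2i-LIF. Lower were 2 of 4 mesenchymal markers, 1 of 2 tested astrocyte markers (median -1.58) and 1 of 4 tested neural progenitor markers (median -1.16). Of the 2 tested endoderm markers, Gata4 and Gata6, 1 was lower (median -1.24). The part of all these markers in the Myc difference was not tested.

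Reprogrammed cells and stem cells in the same 2i-LIF medium were then compared, with the kind of library as a term. None of the 8 genes was called, where 3.36% of all genes were (1.87% higher, 1.49% lower). At an unadjusted p under 0.05, Mycn, Mnt and Mxd1 passed, and none of the 8 was called with edgeR or DESeq2. Mycn was 34.4 to 54.7 CPM in the 5 reprogrammed libraries and 38.7 to 87.6 CPM in the 9 stem cell libraries, and the groups overlapped (-0.64, SE 0.21, adjusted p 0.0834 by limma). Myc was 1.22 to 4.30 CPM against 0 to 11.8 CPM (0.17, adjusted p 0.899). Mnt gave -0.69 (adjusted p 0.155) and Mxd1 -0.88 (adjusted p 0.139), with Mxd1 at 0 reads in 4 of 5 reprogrammed libraries. The Mycn share of family TPM was 95.4% to 100% in these 5 libraries. Of the markers tested, 1 of 2 astrocyte (median 0.88) and 1 of 2 mesenchymal markers (median 1.16) were called higher in reprogrammed cells. No marker of the other lists was called. The part of these markers in the differences was not tested.

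Genes whose pattern over libraries was most like that of each family member were ranked by the lower of the R9 (22 libraries) and R10 (23 libraries) Pearson correlations of log2(CPM + 1) over 10878 genes. These describe shared group differences and depth, and are given without a p. Myc was most like Spry4 (0.91 and 0.90), Bag2 (0.88 and 0.90), Nabp2 (0.88 and 0.94), Suv39h1 (0.87 and 0.87) and Sox11 (0.88 and 0.86). Among the genes most like Mycn were Bex4 (0.92 and 0.92), Phc1 (0.90 and 0.92), Plekhf2 (0.91 and 0.90) and Arid3b (0.90 and 0.95). For Mycl the highest were lower, led by Fzd5 (0.65 and 0.70) and Stk38 (0.63 and 0.66).

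In order of the median over all libraries of a group, Myc was highest in progenitors (137 CPM, range 75.9 to 210.6), then in OKMS serum (77.0, range 5.94 to 166.0) and OKS serum (52.5, range 20.1 to 58.0). It was lower in wild-type serum cells (7.07, range 5.87 to 14.8), stem cells (3.58, range 0 to 11.8) and 2i-LIF cells (2.33, range 1.22 to 4.30). The kinds of library are mixed in unlike shares, and stem cells and 2i-LIF cells were in the opposite order in R9 (0.465 and 2.33) to that in R10 (3.87 and 2.55). Wild-type serum cells and 2i-LIF cells each overlapped with stem cells but not with each other, and the 2 serum systems overlapped. For Mycn the order was stem cells (76.6), 2i-LIF cells (39.6, range 34.4 to 54.7), OKMS serum (25.2, range 2.26 to 47.8), OKS serum (13.4, range 4.85 to 97.0), progenitors (3.32, range 1.69 to 5.35) and wild-type serum cells (0.659, range 0 to 1.57).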

How the data were processed

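Gene CPM and transcript TPM values of 45 libraries were used as deposited by the authors. Per the submitters' processing notes, reads were aligned with minimap2 2.24-r1122 to mm10; the counting tool and its use of strand are not given in the sources used here. Whole reads were recovered from the deposited CPM (100% of values whole within 0.02). In the gene table, 13 columns matched no sample and were not used. Groups came from the labels. limma 3.58.1 (R 4.3.3; lmFit, eBayes with trend, two-sided) was run on log2(CPM + 1) over all genes that reached a CPM of 1 in a number of libraries equal to the smaller group, and likewise on TPM; folds are on that scale and understate changes of low genes. Alternatives were edgeR 4.0.16 and DESeq2 1.42.0 on recovered reads, other pseudocounts, filters and scalings, and left-out libraries. The scripts were tested on simulated data. Named list genes are up to 2 called in each direction with the largest differences per list and comparison. The members and lists were chosen with earlier results of these data known. A gene among those ranked by likeness to the members is not reported here.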

Additional observations from a re-analysis of the deposited data

Results flagged for a closer look

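The 24 combinations of a member and a group of 4 to 10 libraries were searched for a single library far from the others, and none was found.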

How the results depend on the processing

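Over 79 combinations of a member and a comparison, 1296 alternative fits kept 1242 on the same side of the threshold, with 27 weaker, 27 stronger and 0 reversed calls. Myc and Mycn kept their calls between stem cells and progenitors under every alternative run. In R10 the members called there went from 3 to 5 with a pseudocount of 0.25, median centring, edgeR or DESeq2, and between OKMS and OKS from 0 to between 0 and 1 with a day left out. Between 2i-LIF and serum the count fell from 1 to 0 with the R10 pairs only. For wild-type cells in serum it was 0 with any of the 4 libraries left out. For factors at day 2 it was 1 with edgeR, DESeq2 or OKMS only, and 0 to 1 with a library left out (1 without either OKS library). For the time course it was 0 with quantile normalization or without day 20, and 0 to 2 with a library left out. For reprogrammed cells against stem cells in 2i-LIF it was 0 to 1 with a library left out (Mxd1 at -1.15 without OKS day 20). Member transcripts called between stem cells and progenitors fell from 13 to 6 at a minimum of 5 TPM, where fewer were tested, and those between 2i-LIF and serum from 1 to 0 with no filter or a minimum of 5 TPM, and 0 to 1 with a pair left out. The causes of these changes were not tested.

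Of genes on the lists, 4 reversed: Fbl was 0.70 in the R1 library without a number alone (-1.28 over all R10 stem cells, -1.62 without that library), Mxd4 was 0.85 over time without day 20 (-3.36 with it), Bysl ranged from -2.26 to 1.59 and Cdkn2b from -1.88 to 2.76 over time with a library left out, both turning without the OKS progenitors. Of 1297 alternatives for named list genes, 1064 kept the call, 228 lost it and 1 gained it. The replicate block, for wild-type libraries that share numbers 2 and 3, gave 5605 genes called in place of 3940 and the same 2 members called (Myc -4.04, Mxd1 2.16); the numbers correlated at 0.47 over 14688 genes, but with a pair of numbers and no label on what they share, pairing is not established. Median centring moved the median of all genes by 0.23 between R10 stem cells and progenitors, and by 0.15 between OKMS and OKS in R9. Depth limits Mxd1, Mycl and, in 2i-LIF, Myc, whose libraries held few reads.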
